A study of Bos taurus with 8 samples.

Results

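The genes described here encode mucus proteins of intestinal goblet cells, a membrane mucin, a mucin chaperone and transcription factors of the lineage. They are the gel-forming mucin MUC2, the membrane mucin MUC13, the secreted proteins TFF3, SPINK4, CLCA1, FCGBP and ZG16, the mucin chaperone AGR2, and the transcription factors ATOH1 and SPDEF. Members were taken by symbol, and all 10 were found among the 17932 genes of the deposited table. They were measured by RNA-seq in jejunal tissue of Holstein bull calves on day 90 of a feeding trial. The 4 calves of the DCLI group received 1 g/d of a postbiotic in milk replacer, namely heat-killed cells of Limosilactobacillus ingluviei (strain CR37 in the labels, C37 in the methods of the study), and the 4 calves of the CON group received the same diet without it. All calves had milk replacer, free access to starter feed after the first weeks and a step-down weaning that ended shortly before sampling. Each library comes from 1 calf, and the calves are named DCLI1 to DCLI4 (titled TRT1 to TRT4 in the labels) and CON1 to CON4. The labels call the samples jejunal tissue and the methods jejunal epithelium, and the RNA of all cell types in the piece was measured.

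Goblet cells are secretory cells of the gut epithelium that release mucus onto its surface. In the mouse, Notch signaling keeps progenitors absorptive, and cells that escape it express ATOH1 and enter the secretory lineage, where SPDEF drives goblet cell maturation. MUC2 is folded in the endoplasmic reticulum with the help of the disulfide isomerase AGR2, is heavily O-glycosylated and polymerizes into the mucus gel, in which FCGBP, CLCA1, ZG16 and TFF3 are also found.

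Values are TPM, a length-corrected measure of the part each gene takes of its library, so levels of different genes can be set side by side on this scale. The 10 genes together held 0.379% to 0.441% of the TPM in DCLI calves, and 0.186%, 0.558%, 0.390% and 0.0758% in CON1 to CON4. CON2 lay above the narrow range of the DCLI calves, CON1 and CON4 lay below it, and CON3 lay within it. SPINK4 alone made up 45.3% to 49.2% of the members' summed TPM in DCLI calves and 46.3% to 61.0% in CON calves. By mean TPM over the 8 calves, the order was SPINK4 (1750), MUC13 (525), TFF3 (509), AGR2 (483), FCGBP (123), CLCA1 (120), MUC2 (34.2), SPDEF (11.2), ATOH1 (4.77) and ZG16 (0.641). The steps from SPINK4 to MUC13, from AGR2 to FCGBP and from ATOH1 to ZG16 were larger than the SD of either neighbour in both groups, and the other steps in this order were smaller than the larger SD. In terms of rank among all genes, SPINK4 stood between 54 and 277, whereas MUC2 stood between 1831 and 7851.

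The library of CON4 differed from the rest in its cell types. The 7 B cell markers, such as CD79A, summed to 10.5 to 32.6 TPM in DCLI calves, against 21.2, 33.5, 13.1 and 3308 TPM in CON1 to CON4, and none of the markers was listed at 0 in any calf. The mean level of 6 genes that mark all gut epithelium (EPCAM, CDH1, KRT8, KRT18, KRT19 and CLDN7) was 8.05 to 8.44 on the log2(TPM + 1) scale in DCLI calves, and 8.59, 8.44, 8.12 and 6.47 in CON1 to CON4. The labels of the tissue read jejunum, while the extraction text names liver, and the 3 liver genes summed to at most 47.8 TPM in DCLI calves and 17.7 TPM in CON calves. Of the goblet markers, ZG16 was nearly absent, and the other 9 were present in every library.

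**Figure D1:**
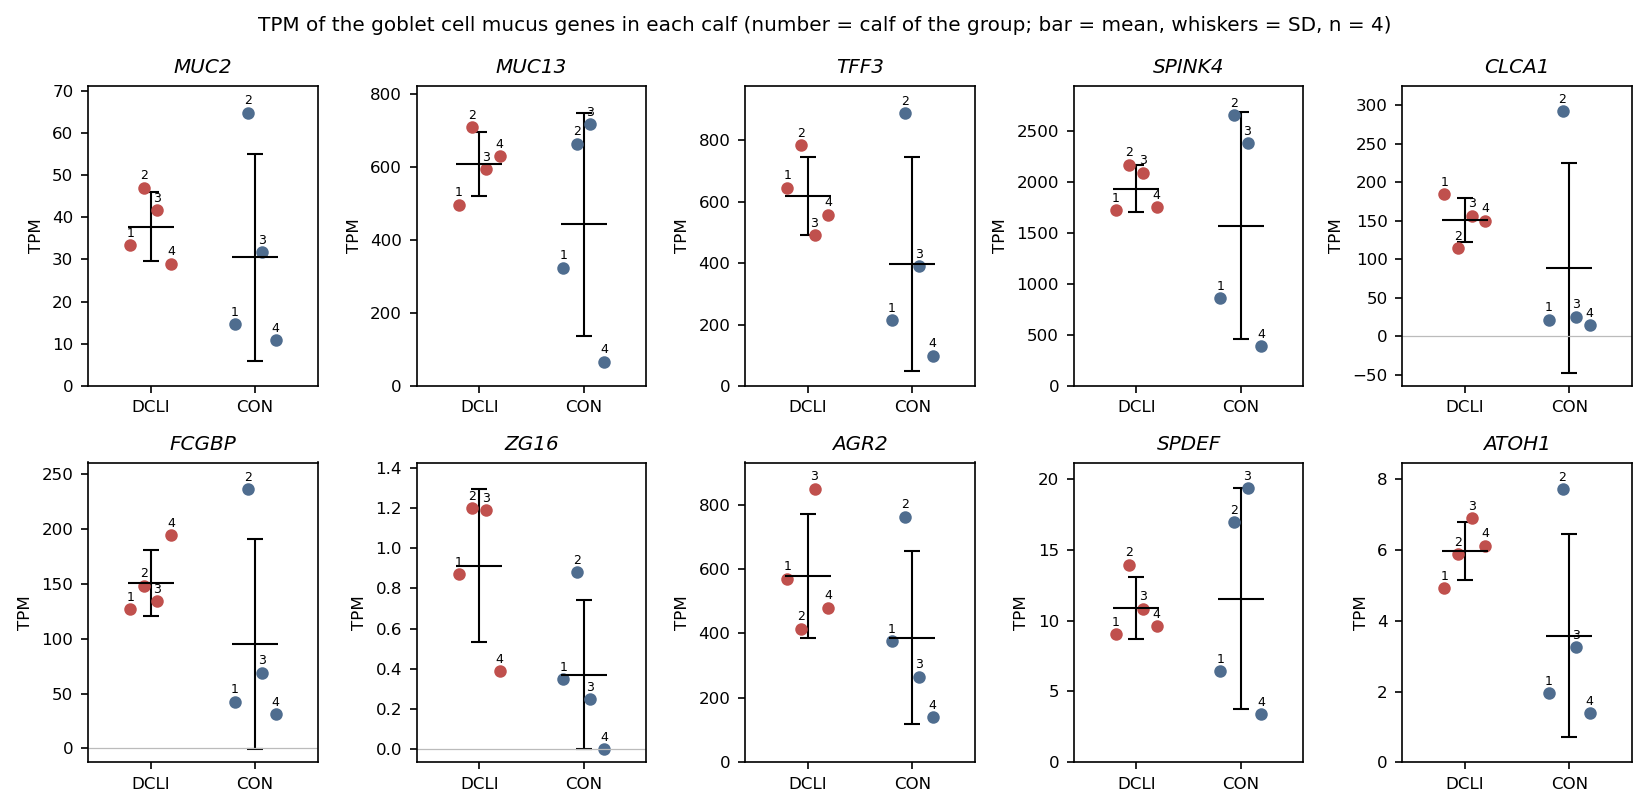
TPM of the 10 goblet cell genes (y axis, linear, a scale for each gene) in the DCLI and CON groups. Points are calves, numbered within their group, and the bar with whiskers gives the mean and the SD (n = 4 each). The DCLI calves cluster, while CON2 is the highest CON calf for every gene but MUC13 and SPDEF and CON4 the lowest for all 10.

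The mucins come first. MUC2 (gene ID 789571), the gel-forming mucin of the intestine, had 33.4, 47.1, 41.7 and 29.0 TPM in DCLI1 to DCLI4, against 14.7, 64.8, 31.8 and 10.8 TPM in CON1 to CON4. The highest and the lowest of the 8 calves were both CON calves. MUC2 averaged 37.8 ± 8.11 TPM in DCLI and 30.5 ± 24.6 TPM in CON (SD, n = 4 each). Its log2 fold change on the log2(TPM + 1) scale was 0.60 (standard error 0.49, 95% interval -0.52 to 1.72), and it did not pass the test (limma, adjusted p = 0.761). It was 0.24 without CON4, 0.37 without CON1 and 1.06 without CON2. In tissue pieces like these, fewer goblet cells and less RNA per goblet cell cannot be told apart.

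MUC13 (gene ID 100295610), a mucin that stays anchored in the apical membrane of enterocytes and goblet cells, had 497, 709, 594 and 629 TPM in DCLI calves and 324, 664, 717 and 66.2 TPM in CON calves. CON2 and CON3 were level with the DCLI calves, and CON4 was far below them. The log2 fold change was 0.92 (standard error 0.67, limma adjusted p = 0.753), and 0.17 without CON4. Of 13 other mucin genes looked for, 9 were matched by symbol or gene ID, and none exceeded 5.50 TPM in any library. The membrane mucin MUC3A had 0.270 to 3.56 TPM in DCLI calves and 0.820 to 5.50 TPM in CON calves. The gel-forming mucins of stomach and airway, MUC5AC and MUC5B, were at most 0.350 TPM and 0.05 TPM.

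Next are the proteins secreted with the mucin. SPINK4 (gene ID 616822), a Kazal-type protease inhibitor of goblet cells, had 1719, 2165, 2089 and 1748 TPM in DCLI calves, against 861, 2648, 2379 and 392 TPM in CON calves. CON2 and CON3 were above every DCLI calf, and CON1 and CON4 were below every DCLI calf. The mean was 1930 ± 229 TPM in DCLI and 1570 ± 1111 TPM in CON (SD, n = 4 each), and the log2 fold change of 0.67 (standard error 0.57, limma adjusted p = 0.767) was 0.13 without CON4 and 1.045 without CON2. TFF3 (gene ID 517889), a trefoil peptide of goblet cells that takes part in mucosal repair, had 646, 785, 491 and 558 TPM in DCLI calves and 213, 889, 390 and 98.1 TPM in CON calves. All DCLI calves were above CON1, CON3 and CON4 and below CON2. Its log2 fold change was 1.06 (standard error 0.58, limma adjusted p = 0.729), 0.54 without CON4 and 1.595 without CON2.

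CLCA1 (gene ID 507643), a secreted metalloprotease of the mucus layer, showed the largest contrast among the members. Its TPM was 184, 114, 157 and 150 in DCLI1 to DCLI4, against 21.4, 292, 25.4 and 14.5 in CON1 to CON4. Each DCLI calf was more than 4 times as high as CON1, CON3 and CON4, yet CON2 was the highest of the 8 calves. The mean was 151 ± 28.8 TPM in DCLI and 88.4 ± 136 TPM in CON (SD, n = 4 each). The log2 fold change was 1.89 (standard error 0.81, 95% interval 0.06 to 3.72), with an unadjusted p of 0.0447 and an adjusted p of 0.696 by limma. With CON2 left out, CLCA1 passed the threshold at a log2 fold change of 2.84 (standard error 0.26, limma adjusted p = 0.0148). Over all alternatives its adjusted p was 0.0148 to 0.974, so the call depends on leaving out that calf.

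FCGBP (gene ID 534348), a large protein that is crosslinked into the mucus, had 127, 148, 134 and 194 TPM in DCLI calves, against 42.7, 236, 69.2 and 30.9 TPM in CON calves. The DCLI calves were again above CON1, CON3 and CON4 and below CON2. The log2 fold change was 1.11 (standard error 0.55, limma adjusted p = 0.716), 0.74 without CON4 and 1.70 without CON2 (limma adjusted p = 0.121). ZG16 (gene ID 614681), a lectin that binds gram-positive bacteria in the mouse colon, had only 0.870, 1.2, 1.19 and 0.390 TPM in DCLI calves and 0.350, 0.880, 0.25 and 0 TPM in CON calves. It fell under the minimum for the test (at least 1 TPM in at least 4 libraries). Fitted with no filter, its log2 fold change was 0.50 (standard error 0.22, limma adjusted p = 0.764).

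AGR2 (gene ID 415112), the endoplasmic reticulum chaperone of mucins, had 570, 415, 849 and 480 TPM in DCLI calves and 376, 762, 266 and 141 TPM in CON calves. DCLI3 was the highest calf, followed by CON2. The log2 fold change was 0.79 (standard error 0.48, limma adjusted p = 0.739), 0.39 without CON4 and 1.203 without CON2. The table lists AGR2 in 3 rows of the same gene ID. The most abundant row held a similar part in all calves, at 48.8% to 54.5% of AGR2 in DCLI calves and 50.5% to 56.8% in CON calves. The least abundant held 5.70% to 9.17% in DCLI calves, against 6.63%, 3.44%, 5.80% and 3.61% in CON1 to CON4. CON2 and CON4 were thus below every DCLI calf in that row. FCGBP also had 3 rows, of which the main one held at least 93.98% in every calf. SPDEF had 2 rows, with at least 79.5% in the main one, and the other 7 genes had 1 row each.

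The lineage transcription factors were among the lowest members. ATOH1 (gene ID 539158), the switch to the secretory lineage, had 4.92, 5.89, 6.91 and 6.12 TPM in DCLI calves and 1.96, 7.72, 3.26 and 1.40 TPM in CON calves. As for CLCA1, CON2 was the highest calf and the other CON calves were below all DCLI calves. The log2 fold change was 0.78 (standard error 0.38, limma adjusted p = 0.716), and 1.15 without CON2 (limma adjusted p = 0.243). SPDEF (gene ID 497620), which drives maturation of goblet cells in the mouse, had 9.06, 13.9, 10.8 and 9.61 TPM in DCLI calves and 6.43, 16.95, 19.3 and 3.40 TPM in CON calves. Its mean TPM was 10.9 ± 2.18 in DCLI and 11.5 ± 7.80 in CON (SD, n = 4 each), while its log2 fold change was 0.17 (standard error 0.47, limma adjusted p = 0.921). The mean TPM and the mean log2 value thus differed in direction, and without CON4 the log2 fold change was -0.25.

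Over the 9 members that passed the filter, 0 had an adjusted p under 0.05 by limma, and 0% of the 13228 genes tested did so, while 541 genes were higher and 396 lower in DCLI at an unadjusted p under 0.05. At an unadjusted p under 0.05, 1 member (CLCA1) was higher in DCLI, and 4.09% of all genes tested were, while 0 members were lower, compared with 2.99% of all genes. The log2 fold change was above 0 for all 9 members, with a median of 0.79, whereas it was above 0 for 43.5% of all genes, with a median of -0.06. It was also above 0 for all 8 enterocyte markers (median 1.80) and for 5 of the 6 pan-epithelial genes (median 0.41), so this direction was not particular to the members. With estimated weights for the libraries, which weight CON4 least and CON2 most, it was above 0 for 3 members, and that of CLCA1 was 0.098. The share of all genes above 0 with these weights was not computed. Leaving out CON4, the log2 fold change was above 0 for 8 members with a median of 0.39, compared with 51.4% of all genes and a median of 0.01. The groups did not overlap for 0 of the 9 members in either direction, compared with 2.28% of all genes with DCLI higher and 3.11% with DCLI lower. With CON2 left out, the log2 fold change was above 0 for 9 members, compared with 44.8% of all genes, and 6 were higher in DCLI at an unadjusted p under 0.05, compared with 6.65%. In the same fit, 5 members (TFF3, CLCA1, FCGBP, AGR2 and ATOH1) had no overlap, compared with 6.77% of all genes, and 1 member (CLCA1) had an adjusted p under 0.05, compared with 0.0688% of all genes. Leaving out CON2 removes the highest CON calf of every tested member but MUC13 and SPDEF, so the values without CON2 describe the rest of the CON group and are not an independent test. A 2-sided exact permutation test, which has 70 ways to assign the calves and cannot give a p below 0.029, gave p between 0.143 (CLCA1, FCGBP and ATOH1) and 0.800 (SPDEF) for the 9 members, and after adjustment over all genes tested the smallest was 0.674. An exact p under 0.05 was found for 0 of the 9 members and for 5.39% of all genes.

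**Figure D2:**
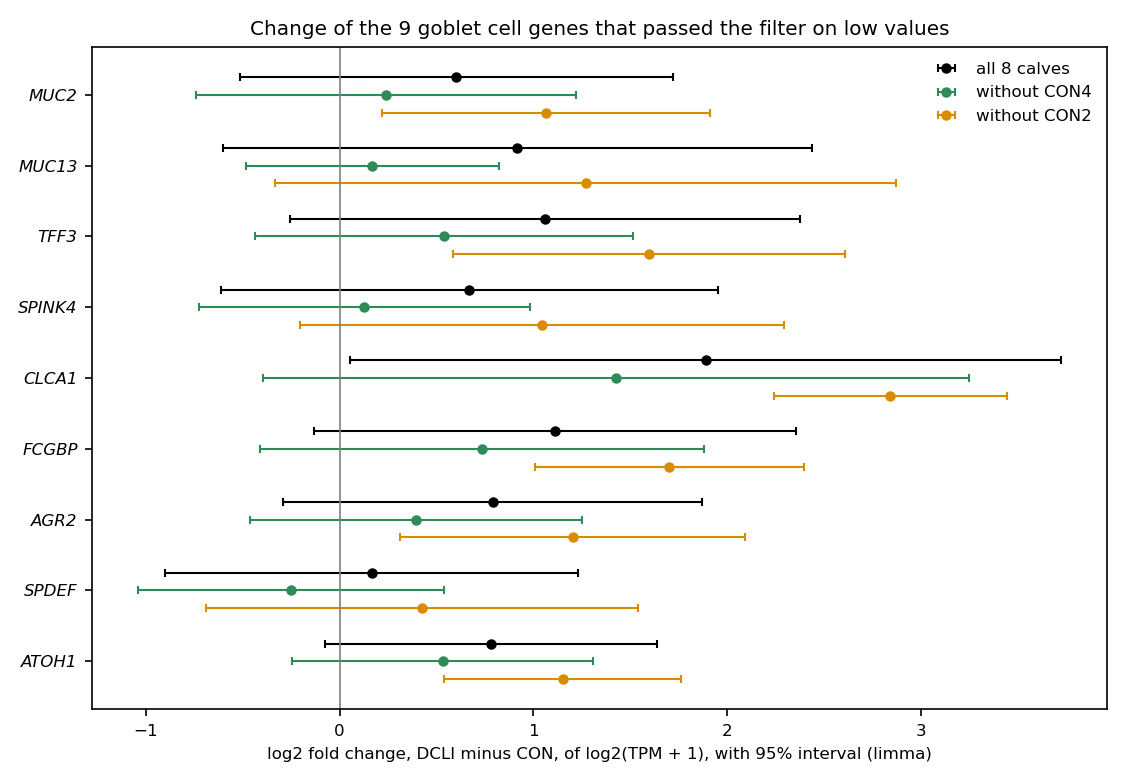
Log2 fold changes (DCLI minus CON, of log2(TPM + 1), x axis) of the 9 genes that passed the filter, with 95% intervals from limma, for all 8 calves, without CON4 and without CON2. With all 8 calves only the interval of CLCA1 lies above 0, and without CON2 its log2 fold change is 2.84.

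The groups differed in how far the calves lay from each other. The SD of log2(TPM + 1) was 0.17 to 0.45 in DCLI and 0.82 to 1.93 in CON for the 9 members, and it was larger in CON for all 9. Most genes shared this direction, since the SD was larger in CON for 87.8% of all genes tested. The ratio of the SD in CON to the SD in DCLI had a median of 4.70 over the 9 members and of 2.30 over all genes. Leaving out CON4, the SD was still larger in CON for all 9 members, and for 67.8% of all genes. In the DCLI group the highest calf exceeded the lowest by 1.26-fold (SPINK4) to 2.05-fold (AGR2) for the 9 members. In the CON group the same ratio was 5.41-fold (AGR2) to 20.2-fold (CLCA1). CON4 was the lowest of the 8 libraries for all 9 members, and for 28.8% of all genes, and CON2 was the highest for 6 members, and for 5.52% of all genes. Both held for 6 members, and for 2.77% of all genes. All DCLI calves lay below CON2 and above CON1 and CON4 for 7 members, and for 2.37% of all genes. These patterns were noticed in the same values and are a description.

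Each member was also expressed relative to the mean of the 6 pan-epithelial genes, which was lowest in CON4. Not all of the 6 were low there, since KRT18 had 31.1 to 41.9 TPM in DCLI calves and 29.4, 45.9, 33.0 and 42.0 TPM in CON1 to CON4. On this scale, CON1 and not CON4 was the lowest calf for 7 of the 9 members. CLCA1 was at -0.66, -1.21, -1.07 and -1.21 relative to the epithelial genes (log2) in DCLI calves, and at -4.10, -0.25, -3.39 and -2.52 in CON calves. The difference between the groups was 1.53 for CLCA1, compared with 1.89 before, with p = 0.143 in a 2-sided exact permutation test. For TFF3 it was 0.70 (exact p = 0.229), for FCGBP 0.75 (exact p = 0.229), for MUC13 0.56 (exact p = 0.371) and for MUC2 0.24 (exact p = 0.83). MUC2 was at -3.09, -2.47, -2.96 and -3.54 in DCLI calves and at -4.62, -2.40, -3.08 and -2.91 in CON calves, so CON4 lay within the range of DCLI. The difference was above 0 for 8 of the 9 members, and for 16.5% of all genes, whose median was -0.42. The exception was SPDEF at -0.20 (exact p = 0.714). The same reference was subtracted from every gene, which moved the differences of all genes down by the same amount. The count of members and the share of all genes above 0 are thus not independent of those of the log2 fold changes. The exact p was under 0.05 for 0 of the 9 members, and for 0.68% of all genes in the direction of higher values in DCLI, or 2.12% in either direction. With CON2 left out, the differences were 1.06 for TFF3, 2.30 for CLCA1 and 1.16 for FCGBP, each with an exact permutation p of 0.029 before adjustment. That is the smallest p that 4 against 3 calves allow, and it says only that every DCLI calf was above the CON calves left. Leaving out CON2 removes the highest CON calf of these genes, so it is not an independent test, and the share of all genes was not computed. With CON1 left out, the differences were 0.32 for TFF3 (exact p = 0.457), 1.02 for CLCA1 (exact p = 0.314) and 0.30 for FCGBP (exact p = 0.486). The differences depended on the reference. With EPCAM alone they were -0.17 for MUC2, -0.10 for SPINK4, 1.12 for CLCA1, 0.34 for FCGBP, 0.29 for TFF3, 0.15 for MUC13, 0.017 for AGR2, 0.008 for ATOH1 and -0.61 for SPDEF.

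**Figure D3:**
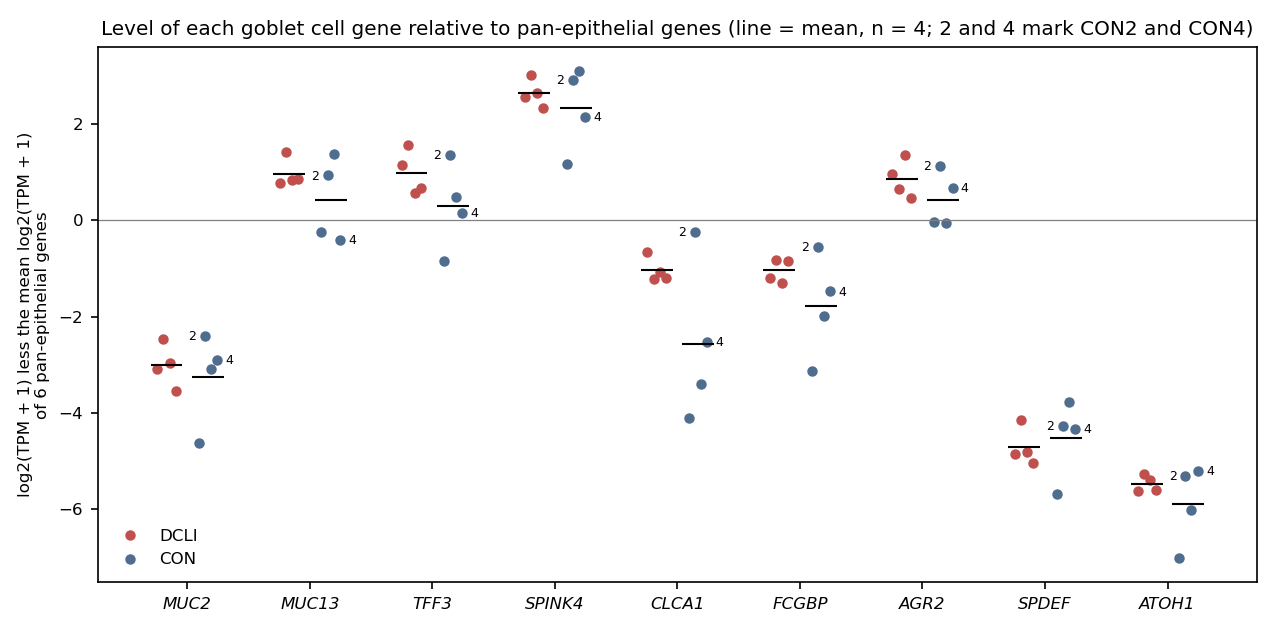
Level of 9 goblet cell genes relative to the mean of 6 pan-epithelial genes (y axis, difference of log2(TPM + 1)) in DCLI and CON calves. Points are calves, lines are group means (n = 4 each), and CON2 and CON4 are numbered. CLCA1 has the largest difference, at 1.53, and CON2 lies above all DCLI calves for CLCA1, FCGBP and MUC2.

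Genes that act on the same mucus were taken from lists by function. Of 15 tested genes of mucin assembly and O-glycosylation, 0 passed the adjusted threshold in either direction, 6 were higher in DCLI at an unadjusted p under 0.05 and 0 were lower, compared with 4.09% and 2.99% of all genes. All 15 had a log2 fold change above 0, compared with 43.5% of all genes, with a median of 0.73, which was 0.55 without CON4. GALNT12, a transferase that starts O-glycans on mucins, had 77.9, 93.7, 85.2 and 106 TPM in DCLI calves, against 51.7, 72.3, 43.6 and 15.7 TPM in CON calves. GCNT4, a branching enzyme of O-glycans, had 35.1, 34.9, 34.0 and 27.5 TPM in DCLI calves, against 10.8, 24.4, 23.9 and 10.5 TPM in CON calves. For these genes every DCLI calf was above every CON calf, CON2 included, as for 2.28% of all genes. GALNT4 of the same list also had no overlap, at 13.4 to 15.6 TPM in DCLI calves and 3.70 to 12.8 TPM in CON calves. The groups overlapped for the other tested genes of the list. The log2 fold changes were 1.15 (standard error 0.41) for GALNT12 and 0.98 (standard error 0.31) for GCNT4, each with a limma adjusted p of 0.692, and 0.71 and 0.79 without CON4. XBP1, a transcription factor of the secretory pathway, had 168 to 223 TPM in DCLI calves and 98.5 to 242 TPM in CON calves. B3GNT6, the enzyme that builds core 3 O-glycans, had 106, 120, 101 and 99.3 TPM in DCLI calves and 121, 4.43, 169 and 3.06 TPM in CON calves. CON2, the calf with the most MUC2, was thus low in B3GNT6, together with CON4.

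Of 9 tested genes of mucus hydration and release, 3 were higher at an unadjusted p under 0.05, compared with 4.09% of all genes, and 0 passed the adjusted threshold (median log2 fold change 0.60, and 0.18 without CON4). SLC4A4, a basolateral bicarbonate transporter, had 91.1, 93.3, 75.0 and 115 TPM in DCLI calves, against 21.1, 74.0, 22.9 and 1.57 TPM in CON calves. Its log2 fold change was 2.39 (standard error 0.85, limma adjusted p = 0.692). The groups did not overlap, as for 2.28% of all genes with DCLI higher, though DCLI3 and CON2 were close. MEP1B, a meprin subunit that in the mouse cleaves MUC2 and frees the mucus from the epithelium, had 142, 168, 109 and 74.0 TPM in DCLI calves and 43.6, 110, 27.5 and 7.64 TPM in CON calves, a log2 fold change of 1.84 (standard error 0.67, limma adjusted p = 0.696). For SLC26A6, an anion exchanger, the log2 fold change was 1.39 (standard error 0.52, limma adjusted p = 0.696), and for SLC26A3, a chloride and bicarbonate exchanger, it was 0.75 (standard error 0.79, limma adjusted p = 0.801). Without CON4 the log2 fold changes were 1.46 for SLC4A4, 1.19 for MEP1B, 0.87 for SLC26A6 and 0.16 for SLC26A3. These transporters and MEP1B are also expressed by enterocytes.

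Of 16 tested regulators of the secretory lineage, 0 reached an unadjusted p under 0.05 by limma. Of all genes, 4.09% were higher and 2.99% lower in DCLI at that threshold. The log2 fold change was above 0 for 14 of the 16 regulators, compared with 43.5% of all genes. Its median was 0.22, or -0.12 without CON4. The Notch target HES1, which represses ATOH1, had 22.7 to 26.7 TPM in DCLI calves and 29.4, 29.5, 25.1 and 8.20 TPM in CON calves. ELF3 and EHF, epithelial factors of the ETS family, had log2 fold changes of 0.52 (standard error 0.57) and 0.54 (standard error 0.43), and KLF4, a factor of goblet cell differentiation in the mouse, had 0.03 (standard error 0.51). Without CON4 they were -0.11 for ELF3, 0.09 for EHF and -0.52 for KLF4. Of 11 genes of granule traffic and release, 0 reached an unadjusted p under 0.05 by limma, against the same shares of all genes. Their log2 fold change was above 0 for 8 of the 11, compared with 43.5% of all genes (median 0.23, and -0.03 without CON4). VAMP8, a SNARE protein of mucin granule exocytosis, had 196 to 226 TPM in DCLI calves and 155 to 269 TPM in CON calves. Of 6 other secreted or surface products of gut epithelium, 5 had a log2 fold change above 0, compared with 43.5% of all genes. None of the 6 had an unadjusted p under 0.05 by limma, compared with 4.09% of all genes higher and 2.99% lower in DCLI. Their median log2 fold change was 0.54, and 0.09 without CON4. CLCA4, a relative of CLCA1, had 895 to 1246 TPM in DCLI calves and 643, 1133, 1426 and 131 TPM in CON calves, with its highest value in CON3, where CLCA1 was low. DMBT1, a scavenger receptor of mucosal surfaces, had 235 to 574 TPM in DCLI calves and 10.5 to 550 TPM in CON calves. LYPD8, the gene of this list below 0, had 78.8 to 319 TPM in DCLI calves and 124 to 597 TPM in CON calves. Its log2 fold change was -0.69 (standard error 0.57). WFDC2 had 96.6 to 211 TPM in DCLI calves and 32.8 to 294 TPM in CON calves. Its log2 fold change was 0.18 (standard error 0.64), and -0.53 without CON4.

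**Figure D4:**
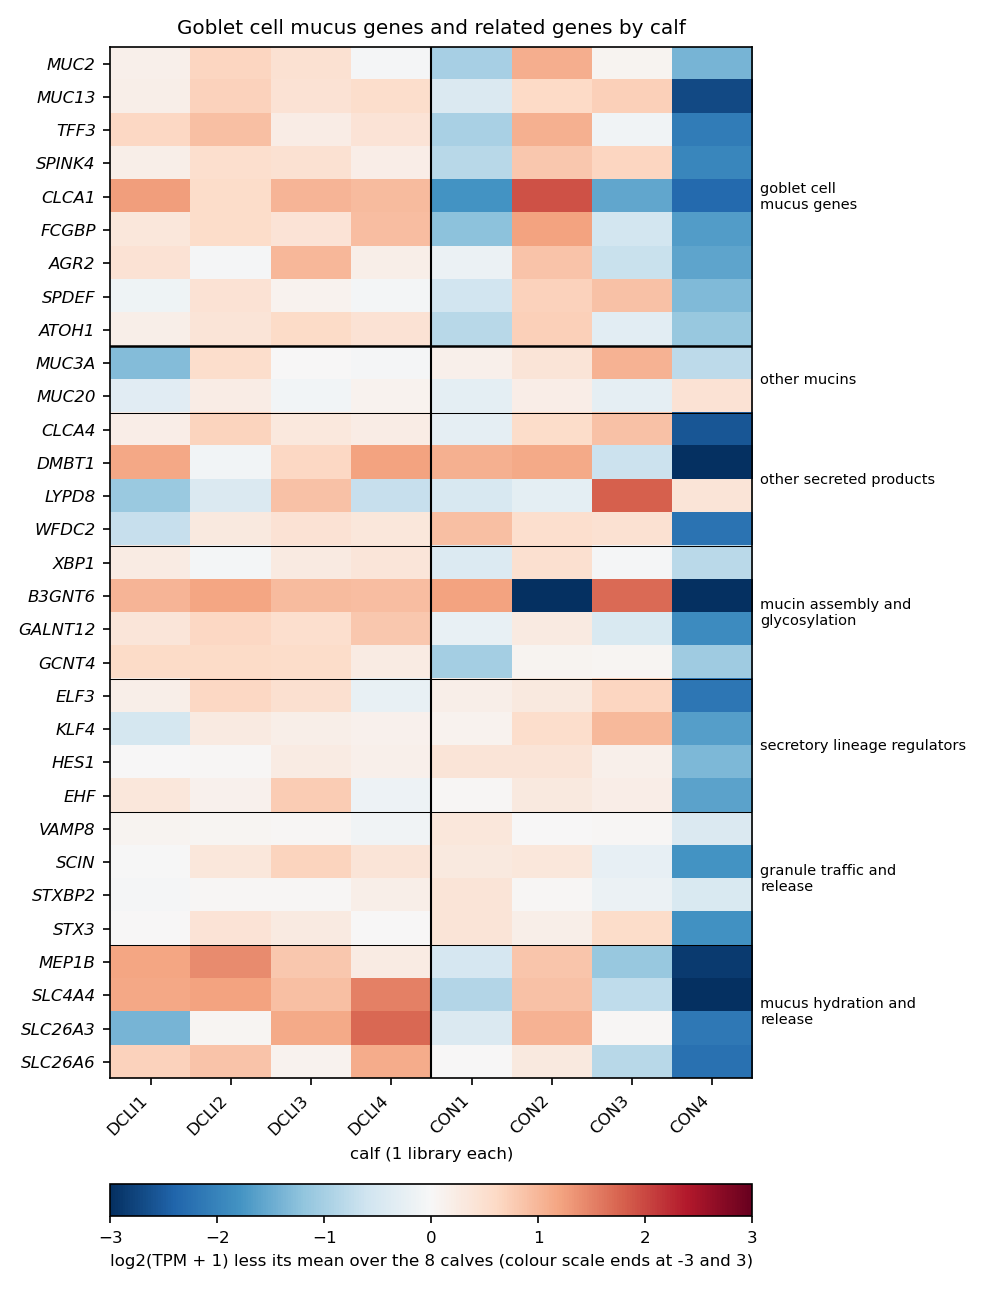
The 9 goblet cell genes that passed the filter and the up to 4 most abundant genes of each related list (rows), by calf (columns, DCLI left of CON). Color gives log2(TPM + 1) less its mean over the 8 calves. CON4 is low for all 9 goblet cell genes, CON2 is the highest calf for 6 of them, and B3GNT6 is low in CON2 and CON4, at 4.43 and 3.06 TPM.

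Markers of other cell types and of position along the intestine differed between these calves as well. The 8 enterocyte markers, VIL1 and FABP2 among them, summed to 18475 to 32810 TPM in DCLI calves and 965 to 27199 TPM in CON calves. At an unadjusted p under 0.05 by limma, 4 of the 8 (LCT, MEP1A, ALPI and APOA4) were higher in DCLI, compared with 4.09% of all genes. VIL1 and FABP2 were not among these 4. The 5 smooth muscle markers summed to 755 to 2479 TPM in DCLI calves and 1160 to 7062 TPM in CON calves. Their log2 fold change was below 0 for all 5, whereas it was above 0 for 43.5% of all genes. The 5 fibroblast markers summed to 285 to 503 TPM in DCLI calves and 373 to 866 TPM in CON calves. All 5 had a log2 fold change below 0, whereas 43.5% of all genes were above 0. At an unadjusted p under 0.05 by limma, 2 of the 5 (COL1A1 and COL3A1) were lower in DCLI, compared with 2.99% of all genes. FABP6, a marker of the distal small intestine and not of a cell type, was listed at 0.760, 13.2, 25603 and 37.5 TPM in DCLI calves, against 68963, 26023, 50176 and 1066 TPM in CON calves. SLC10A2, the other such marker, had 0.860, 9.38, 51.6 and 6.43 TPM in DCLI calves, against 124, 53.4, 315 and 21.2 TPM in CON calves. The groups overlapped for both. Enteroendocrine markers, of another secretory cell type, summed to 113 to 210 TPM in DCLI calves and 33.8 to 240 TPM in CON calves. The part of these cell types in the values of the goblet cell genes was not tested beyond the scaling to epithelial genes. That scaling does not account for the position of each piece along the intestine, whose part was not tested.

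The likeness of genes to each member was measured as the root mean square difference of their log2(TPM + 1) values over the 8 calves, each centred on its mean, among 8128 other genes. For MUC2, the nearest genes with a mean TPM of at least 10 were NCKAP1 (0.28), LOC528332 (0.28) and SLC35F5 (0.30). ATOH1 was the third nearest of all to MUC2, at 0.29. For MUC13, FRK (0.10), BAIAP2L2 (0.14) and TM4SF20 (0.14) were nearest, and for SPINK4 the nearest was GALNT3 (0.21), a transferase of O-glycan synthesis. FCGBP had SLC6A14 (0.27) and HEPACAM2 (0.27) as its nearest genes and TFF3 as its nearest member, at rank 6. CLCA1 had no gene closer than HNMT (0.40), and its nearest member was FCGBP at rank 11. For the other members the nearest fellow member stood between rank 21 (for TFF3) and rank 77 (for SPDEF), so these genes were not each other's closest matches.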

How the data were processed

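RNA-seq values of jejunal tissue from 8 calves (4 DCLI, 4 CON) were used. The authors obtained TPM with RSEM (reads filtered with SOAPnuke, aligned to the Bos taurus assembly of their methods with HISAT2) and deposited them for each library, with no pooling. TPM keeps no read depth, so errors come from the spread between calves alone and no counting interval can be printed. The 8 read count columns are filled for 76 rows and were not used, so the DESeq2 test of the study was not repeated.

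The table has 50681 rows, several for some genes, and TPM was summed by gene ID to 17932 genes. All 10 member IDs carry the same symbol in RefSeq, whose assembly differs from that of the authors, so no coordinates are given. DCLI was compared with CON with limma 3.58.1 in R 4.3.3 (lmFit, then eBayes with a trend in the variance) after log2(TPM + 1) transformation. The fit held the 13228 genes that reached 1 TPM in 4 or more libraries, all of which entered the Benjamini-Hochberg adjustment, and the threshold was 0.05. The added 1 shrinks the fold changes of genes near 0. Exact permutation tests over calves were 2-sided. Named genes are the 10 members and the up to 4 most abundant tested genes of each related list. The 3 genes nearest to each member and markers beside results are also named. Of the list genes and the nearest genes, only a selection is printed in the text. MUC5AC, MUC5B, GALNT4 and the genes of the closing paragraphs were picked after their values were seen. The limma step was tested on simulated data with known changes and the same SD in both groups. The larger spread of the CON calves was thus not part of that test. The members and lists were chosen with earlier results of these data known. Alternatives changed the pseudocount, filter, scaling, variance model, library weights, replicate block and libraries. Python 3.11.15 was used for tables and figures.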

Additional observations from a re-analysis of the deposited data

Results flagged for a closer look

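The TPM of CLCA1 in CON2 was 292.35, and its gap to the next CON calf was 0.961 of the range of the CON group, above the 95% critical value of Dixon's test for 4 samples. It was the only such value among the 20 sets of 4 calves examined (10 genes in each group), and chance gives about 1 in 20. The rule was applied to TPM and not to the log2 scale of the other tests, so the flag holds for TPM alone.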

How the results depend on the processing

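Under the 17 alternatives to the test across genes, 0 genes and 0 members passed the threshold, except when a calf was left out. Leaving out each calf in turn gave 0 to 9 genes (9 without CON2, 1 without DCLI1) and 0 to 1 members (CLCA1 without CON2). With the replicate block the count of genes was 0 and the count of members 0. Same-numbered calves did not deviate together (r across genes 0.05, -0.04, -0.03 and -0.20), so the numbers were not read as pairs. Array weights, which gave CON2 a weight of 3.12 and CON4 a weight of 0.0979, left 3 of the 9 tested members with a log2 fold change above 0, and gave -0.37 for MUC2, -0.0325 for MUC13, -0.09 for TFF3, -0.23 for SPINK4, -0.14 for FCGBP and -0.51 for SPDEF, while CLCA1, AGR2 and ATOH1 were at 0.098, 0.01 and 0.004. These weights are estimated from the same values, and the share of all genes above 0 was not computed with them. Leaving out 1 calf gave SPDEF a log2 fold change of -0.25 to 0.49. Relative to EPCAM alone, the differences were -0.17 for MUC2, -0.10 for SPINK4 and -0.28 for ZG16. Leaving out 1 calf, the relative differences ranged from -0.21 to 0.52 for MUC2, from -0.082 to 0.56 for SPINK4, from -0.087 to 0.47 for ZG16 (1.06 with a pseudocount of 0.1, against 0.13) and from -0.59 to 0.054 for SPDEF. In these comparisons the cause was not tested. TPM holds no depth, so the counting error behind the lowest genes, ZG16 and ATOH1, is unknown.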

Other observations

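REG4, a secreted lectin of goblet and enteroendocrine cells, had 206, 144, 186 and 263 TPM in DCLI calves and 55.5, 310, 180 and 62.0 TPM in CON calves, so that CON2 was again the highest calf and CON1 and CON4 were below all DCLI calves. CREB3L1, a stress transducer of the endoplasmic reticulum in secretory cells, had 45.02, 35.6, 22.7 and 37.2 TPM in DCLI calves and 14.4, 23.8, 5.97 and 3.84 TPM in CON calves, a difference of 1.72 on the log2 scale (standard error 0.49, limma unadjusted p = 0.0067, adjusted p = 0.692). ERN2, the IRE1 beta sensor of goblet cells, had 5.16 to 6.26 TPM in DCLI calves and 1.74, 7.05, 2.50 and 1.21 TPM in CON calves, with CON2 above and the other CON calves below all DCLI calves, as for CLCA1. AGR3, the paralog of AGR2, had 23.4 to 31.0 TPM in DCLI calves and 4.11 to 26.7 TPM in CON calves. The trefoil genes TFF1 and TFF2 had at most 1.64 and 5.07 TPM in any calf.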
